A study of Rattus norvegicus with 20 samples.

Results

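The androgen receptor is a nuclear receptor that cannot act alone, and the genes described here encode proteins that supply its ligand, fold it, or carry its signal to the chromatin. They were Srd5a1, Fkbp4, Fkbp5, Ncoa1, Ncoa2, Ncoa3, Ncoa4 and Ncor1, and the question put to them was whether they were expressed in the embryonic rat testis at the time it met an antiandrogen, and whether their level changed. Every probe set annotated to 1 of these symbols was taken. Of the 8 listed genes, 7 had a probe set, and these had 13 probe sets among the 31042 on the array that were not controls. Srd5a1, a steroid 5-alpha reductase that turns testosterone into dihydrotestosterone, was not analysed here.

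In the absence of ligand the androgen receptor is held in the cytoplasm by a chaperone complex built on HSP90, in which the immunophilins FKBP52 (Fkbp4) and FKBP51 (Fkbp5) bind by their tetratricopeptide repeats. Androgen binding frees the receptor to enter the nucleus, where p160 coactivators of the NCOA family recruit acetyltransferases to its target genes, and corepressors such as NCOR1 recruit deacetylases. Antiandrogens, among them flutamide and metabolites of the fungicide vinclozolin, compete with androgen for the receptor and favour the corepressor-bound state, and the fetal testis both makes androgen and holds cells that carry the receptor.

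The testes came from Sprague-Dawley rat embryos whose sex was typed by PCR for Sry, and total RNA was hybridised to 20 Affymetrix arrays, 2 for each of 10 groups. In 6 groups the dam had been injected with vinclozolin at 100 mg/kg per day, or with the DMSO vehicle alone, daily from E8 to E14, and the testes were taken at E13, E14 or E16. Embryos taken at E13 were therefore collected before the course of injections ended, and those at E16 after it. In the other 4 groups, E13 gonads with the mesonephros attached were kept in culture for 3 days with 50 µM vinclozolin, against DMSO alone, or with 0.5 µM flutamide, against ethanol alone, and the mesonephros was removed before RNA was taken. For each pair of cultured gonads 1 gonad received the compound and the opposite gonad its vehicle. No group carried a mutant allele or transgene. Arrays of 1 group are labelled as biological replicates without the number of embryos or litters in each, so p-values measure the spread between these samples, which may be technical.

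The values are MAS5 signals, a linear measure of probe set brightness. The arrays had been scaled by the authors in 3 sets, the cultures with flutamide (trimmed mean 107), the cultures with vinclozolin (218.1) and the in utero arrays (210.1), so signals are compared within a set and across sets only by their percentile on the array. Signal of actin at its 3' end over its 5' end, which rises as RNA degrades, came to 9.08 to 11.06 on flutamide culture arrays, 2.67 to 3.9 on vinclozolin culture arrays and 1.73 to 3.47 on in utero arrays. The arrays of a group correlated at 0.959 to 0.982. Both E13 arrays numbered 1 stood apart from those numbered 2 in the summed signal of 4 red cell genes. The sums were 963.3 (vinclozolin) and 773.3 (vehicle) against 2913.2 and 5554.4. Calls of the listed members that rest on E13 are also given without these arrays. Results of the gene lists and cell type markers against E13 are given only with them. Of 5 Sertoli cell markers measured, 4 or 5 were detected on every array.

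Promoters of 3 genes whose signal differed between stages are shown first, together with that of Ncoa1, which was the only 1 of the 6 promoters at hand that held the steroid receptor half-site searched for. Each sequence is the RefSeq window of 250 bases before to 50 bases after the gene's start in the GRCr8 assembly, 5' to 3' on the gene's strand. Capitals mark matches on either strand to AGAACA (a steroid receptor half-site), GAANNTTC (a heat shock element pair), GGGCGG (a GC box) or CCAAT, and no matches overlapped.
Fkbp4, chr4:163397869-163398168, minus strand: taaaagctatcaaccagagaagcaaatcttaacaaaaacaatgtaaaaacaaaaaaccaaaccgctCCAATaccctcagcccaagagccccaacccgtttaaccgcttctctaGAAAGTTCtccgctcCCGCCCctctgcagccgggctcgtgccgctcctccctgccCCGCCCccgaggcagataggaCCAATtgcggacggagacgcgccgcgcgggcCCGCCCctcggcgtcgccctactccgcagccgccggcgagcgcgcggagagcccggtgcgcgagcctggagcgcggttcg
Fkbp5, chr20:6543506-6543805, minus strand: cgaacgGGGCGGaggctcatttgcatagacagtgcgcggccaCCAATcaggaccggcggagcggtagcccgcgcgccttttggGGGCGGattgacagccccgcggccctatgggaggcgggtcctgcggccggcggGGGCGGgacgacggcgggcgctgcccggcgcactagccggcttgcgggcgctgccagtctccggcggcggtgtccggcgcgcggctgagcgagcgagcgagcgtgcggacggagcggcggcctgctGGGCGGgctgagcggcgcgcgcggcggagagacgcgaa
Ncoa4, chr16:7401541-7401840, plus strand: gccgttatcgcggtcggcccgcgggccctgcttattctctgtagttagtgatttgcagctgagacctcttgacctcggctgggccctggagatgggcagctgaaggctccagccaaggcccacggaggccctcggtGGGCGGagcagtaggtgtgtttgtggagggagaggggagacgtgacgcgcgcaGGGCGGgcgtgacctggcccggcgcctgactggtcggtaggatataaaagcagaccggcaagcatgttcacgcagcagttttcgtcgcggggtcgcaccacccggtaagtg
Ncoa1, chr6:33195875-33196174, minus strand: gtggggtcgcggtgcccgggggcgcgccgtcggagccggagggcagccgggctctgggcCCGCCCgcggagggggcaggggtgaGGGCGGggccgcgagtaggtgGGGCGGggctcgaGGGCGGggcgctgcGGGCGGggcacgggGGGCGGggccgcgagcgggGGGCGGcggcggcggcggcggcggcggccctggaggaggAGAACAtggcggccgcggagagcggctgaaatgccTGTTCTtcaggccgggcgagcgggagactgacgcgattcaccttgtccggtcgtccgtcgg

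The 4 windows had a GC content of 63.3% (Fkbp4), 77% (Fkbp5), 64.3% (Ncoa4) and 80.7% (Ncoa1), against a median of 51.7% over 33469 promoters of this length. Fkbp4 held 3 GC boxes, 2 CCAAT boxes and 1 heat shock pair, which began at position -137 from the start. Fkbp5 held 4 GC boxes and 1 CCAAT box, and Ncoa4 held 2 GC boxes and no CCAAT box. Ncoa1 held 7 GC boxes and the half-site at positions -46 and -11, the second on the opposite strand. The half-site was present in 20.7% of all promoters, the heat shock pair in 8.6%, the GC box in 33.1% and the CCAAT box in 37.5%. The windows of Fkbp5, Ncoa1 and Ncoa4 lay inside the annotated spans of their genes. These matches describe letters in the windows shown and say nothing of binding. Promoters of Srd5a1 and Ncor1 were also searched and held GC boxes but no half-site.

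A probe set was taken as detected on an array if its signal reached the 40th percentile of that array, which lay at 31.6 to 42.1 signal units on in utero arrays, 39.6 to 41 on vinclozolin culture arrays and 26.5 to 30.7 on flutamide culture arrays. By that measure 5 genes, namely Fkbp4, Fkbp5, Ncoa1, Ncoa4 and Ncor1, were detected in every group and on every array, each with at least 1 probe set. Of the 13 probe sets, 9 were detected on all 20 arrays. The 40th percentile is a rank, so most probe sets of an array reach it by definition. On 2 or more arrays it was reached by 11 of the 13, and by 22526 of 31042 probe sets over the whole array. Ncoa3 was detected on 17 of 20 arrays with its brighter probe set. Ncoa2 was not detected on any.

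**Figure D1:**
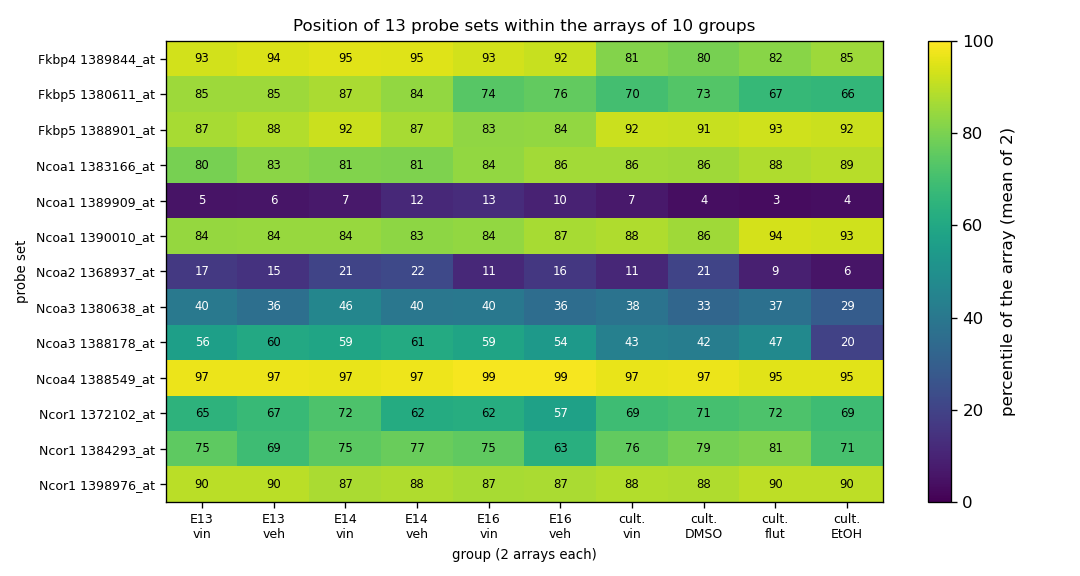
Position of each of the 13 probe sets (rows) within the arrays of each group (columns), as the mean percentile of 2 arrays, where 100 is the brightest probe set. Ncoa4 lay at the top of every array (95.17 to 99.13 on single arrays), and Ncoa2 and 1 Ncoa1 probe set lay under the 40th percentile throughout.

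Fkbp4 and Fkbp5 are the immunophilins of the receptor complex. Fkbp4 aids androgen receptor activity, and mice that lack it have defects of male external genitalia. The gene lies on chromosome 4 (163389464 to 163397918, GRCr8) and was read by 1 probe set, 1389844_at. At E13 its signal was 924.9 and 910.5 after vinclozolin, against 1030.3 and 1116.5 after vehicle. At E14 it was 1545.6 and 1025.2, against 1036.9 and 1312.8. At E16 it was 873.6 and 994.1, against 785.2 and 812.5. All 4 arrays at E16 lay below all 4 at E14, whereas treated and vehicle arrays were apart in opposite directions at E13 and E16 and overlapped at E14. On single in utero arrays Fkbp4 stood at percentiles 91.45 to 96.5. In culture the signals were 411.4 and 339.6 with vinclozolin against 371.6 and 312.1 with DMSO, and 163.2 and 240.6 with flutamide against 260.7 and 221.5 with ethanol. Both pairs of culture groups overlapped, and Fkbp4 there stood at percentiles 77.95 to 86.72, below its place in utero.

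Fkbp5 restrains steroid receptors in the same complex and is itself a transcriptional target of glucocorticoid and androgen receptors. It lies on chromosome 20 (6458931 to 6577227) and was read by 2 probe sets. The brighter, 1388901_at, gave 502.3 and 589.5 after vinclozolin at E13, against 521.3 and 735.1 after vehicle. At E14 it gave 769.2 and 872.1, against 410.8 and 740.7, and at E16 371.3 and 432.1, against 440.7 and 398.5. The treated arrays lay above the vehicle arrays at E14, where the vehicle arrays were far apart, and overlapped with them at E13 and E16. All 4 arrays at E16 were below those at E13. The second probe set, 1380611_at, gave 428.1 and 540 against 431.6 and 554.5 at E13, 657.5 and 473.1 against 314.5 and 635.6 at E14, and 203.4 and 268.1 against 270.7 and 237.4 at E16, again vinclozolin against vehicle. With this probe set all 4 arrays at E16 were below all 8 arrays of E13 and E14, and treated and vehicle arrays overlapped at each stage. The probe sets parted in culture. The brighter one stood at percentiles 90.28 to 93.56 of the 8 culture arrays, and the second at 65.41 to 75.39. Signals of 1388901_at were 906.8 and 821.2 with vinclozolin against 906.7 and 727.9 with DMSO, and 376.7 and 456.5 with flutamide against 387.9 and 407.6 with ethanol. With that probe set the arrays of each compound overlapped with those of its vehicle.

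Ncoa1, Ncoa2 and Ncoa3 encode the p160 coactivators SRC-1, SRC-2 and SRC-3. Ncoa1, on chromosome 6 (32952090 to 33229829), was read by 3 probe sets. With the brightest, 1390010_at, the signal after vinclozolin was 416.7 and 458 at E13, 368.7 and 565.9 at E14 and 448.5 and 386.8 at E16. After vehicle it was 384.9 and 541.2 at E13, 411 and 402.6 at E14 and 556.3 and 493.8 at E16. In culture it was 523.3 and 709 with vinclozolin against 522.9 and 470.6 with DMSO, and 491.5 and 415.4 with flutamide against 438.7 and 422.8 with ethanol. The 3 stages overlapped, and treated arrays lay below vehicle arrays at E16. In the vinclozolin culture they lay above the DMSO arrays, but by as little as 523.3 against 522.9. A second probe set, 1383166_at, ranged between 281.5 and 519.8, while the third, 1389909_at, reached no more than 14 and was not detected on any array.

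Ncoa2, on chromosome 5 (10618712 to 10852776), had 1 probe set, 1368937_at, with signals of 1.8 to 22.8 at percentiles 4.21 to 32.65. It was not detected on any of the 20 arrays and was not tested, which bounds the signal of that probe set but does not show the gene to be silent, since Ncoa1 also had a probe set below detection beside 2 that were detected on every array. Ncoa3, on chromosome 3 (175157824 to 175237831), had 2 probe sets. The brighter, 1388178_at, gave 95 and 88.1 after vinclozolin against 133.1 and 92.1 after vehicle at E13, 100.8 and 121.6 against 144.6 and 114.3 at E14, and 100.4 and 111.5 against 90.7 and 58.3 at E16. All 12 in utero arrays were above the 40th percentile (49.19 to 63.4), and treated arrays lay above vehicle arrays only at E16. In the flutamide culture it gave 49.9 and 31.8, against 14.6 and 7 with ethanol, and both ethanol arrays were under the 40th percentile. In the vinclozolin culture it gave 52.6 and 44.3, against 69.2 and 29.1 with DMSO, and 1 DMSO array was under it. The other Ncoa3 probe set, 1380638_at, ranged between 17.1 and 62.1 and was detected on 6 of 20 arrays.

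**Figure D2:**
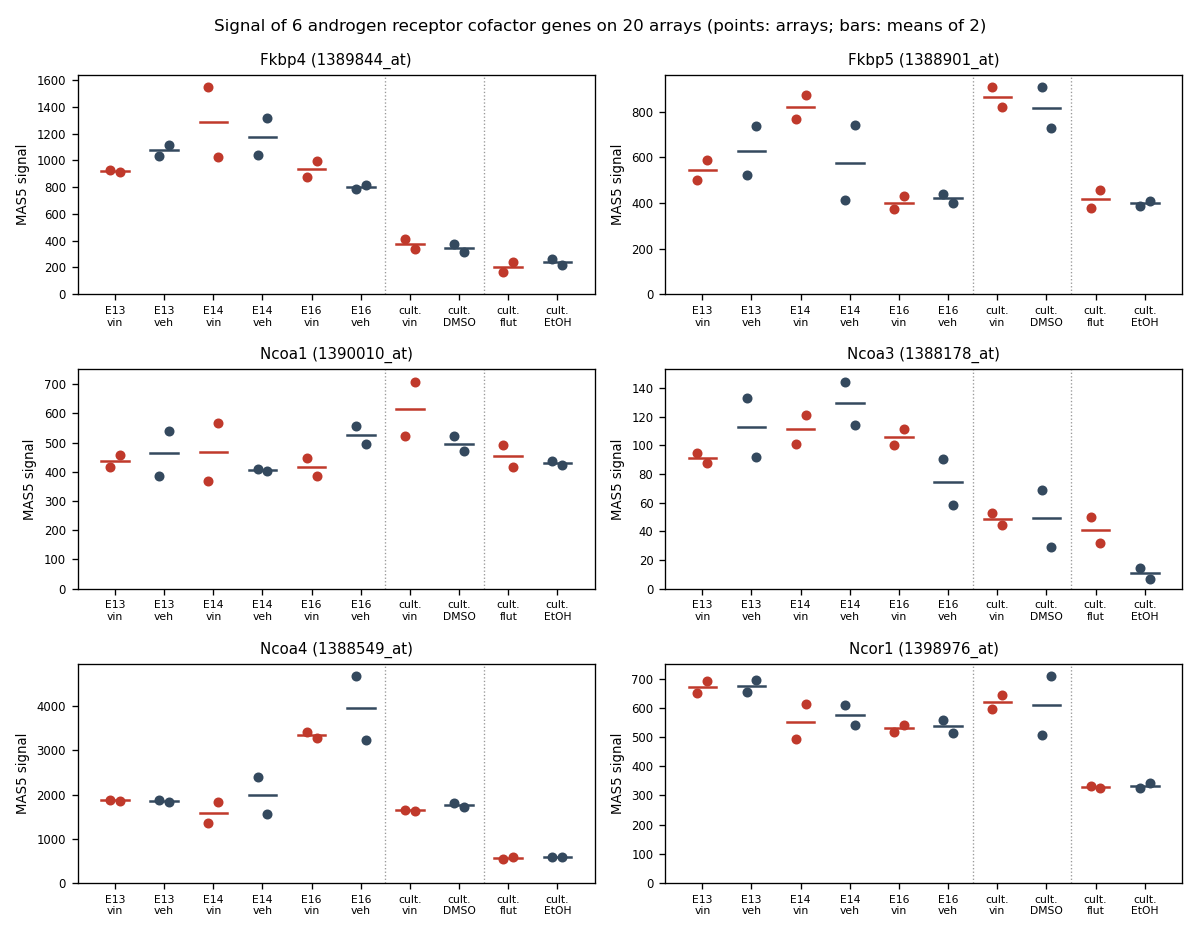
MAS5 signal (y axis, linear, from 0) of the probe set that stands for each of 6 genes on all 20 arrays, with points for arrays, bars for means of 2, compound-treated groups in red and vehicle groups in dark blue, and dotted lines between the 3 sets of arrays, whose signals are not on 1 scale. Fkbp4 and Fkbp5 are lower and Ncoa4 is higher at E16 than at E14, while Ncoa1 keeps to 368.7 to 565.9 in utero.

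Ncoa4, first described as the androgen receptor coactivator ARA70, is also the cargo receptor that takes ferritin to the lysosome and so releases iron, a role that matters in red cell precursors. It lies on chromosome 16 (7395502 to 7415846) and was read by 1388549_at. Its signal after vinclozolin was 1869.9 and 1864.9 at E13, 1357.7 and 1823 at E14 and 3403.1 and 3273.9 at E16. After vehicle it was 1879.3 and 1821.2 at E13, 2394.2 and 1570 at E14 and 4677.1 and 3237.1 at E16. Every array at E16 was above every array at E13 and E14, and treated and vehicle arrays overlapped at all 3 stages. In culture Ncoa4 gave 1658.8 and 1633.4 with vinclozolin against 1804.4 and 1718.3 with DMSO, with the treated arrays lower, and 542.6 and 596.4 with flutamide against 584.1 and 592.8 with ethanol, which overlapped.

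Ncor1 encodes the corepressor that antiandrogen-bound receptor can recruit. It lies on chromosome 10 (47498852 to 47641612) and was read by 3 probe sets, all detected on every array. The brightest, 1398976_at, gave 650.9 and 690.9 after vinclozolin against 654 and 694.5 after vehicle at E13, 494.4 and 612.1 against 610.6 and 540.6 at E14, and 517.4 and 541.6 against 559.2 and 514.5 at E16. All 4 arrays at E14 and all 4 at E16 were below those at E13, and treated and vehicle arrays overlapped at each stage. In culture it gave 594.9 and 645.6 with vinclozolin against 508.1 and 709.2 with DMSO, and 333.9 and 326.7 with flutamide against 325.4 and 342.4 with ethanol, again overlapping.

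The other Ncor1 probe sets were dimmer. The signal of 1372102_at was 169.3 and 121 after vinclozolin against 142.6 and 196.4 after vehicle at E13, 203.1 and 249.9 against 116.9 and 149.8 at E14, and 120.5 and 138.7 against 106.8 and 75.8 at E16. Treated arrays were the higher ones at E14 and E16. With 1384293_at the signals were 331.4 and 197.3 against 259.8 and 121.3 at E13, 184.7 and 360.6 against 254 and 352 at E14, and 228 and 280.4 against 132.4 and 116.1 at E16. Here treated arrays were apart from vehicle arrays, and higher, at E16. In culture 1372102_at gave 179.6 and 198.1 with vinclozolin against 172.4 and 243.6 with DMSO, and 100.4 and 134.5 with flutamide against 110.4 and 87.1 with ethanol, and both pairs overlapped. There 1384293_at gave 310.5 and 242.5 with vinclozolin against 244.3 and 473.4 with DMSO, which overlapped. It gave 178.6 and 180.6 with flutamide against 103.6 and 115.6 with ethanol, with the flutamide arrays higher (log2 difference 0.64, SE 0.35, not past the test). The brightest probe set showed none of these separations, so the Ncor1 probe sets did not give 1 answer.

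**Figure D3:**
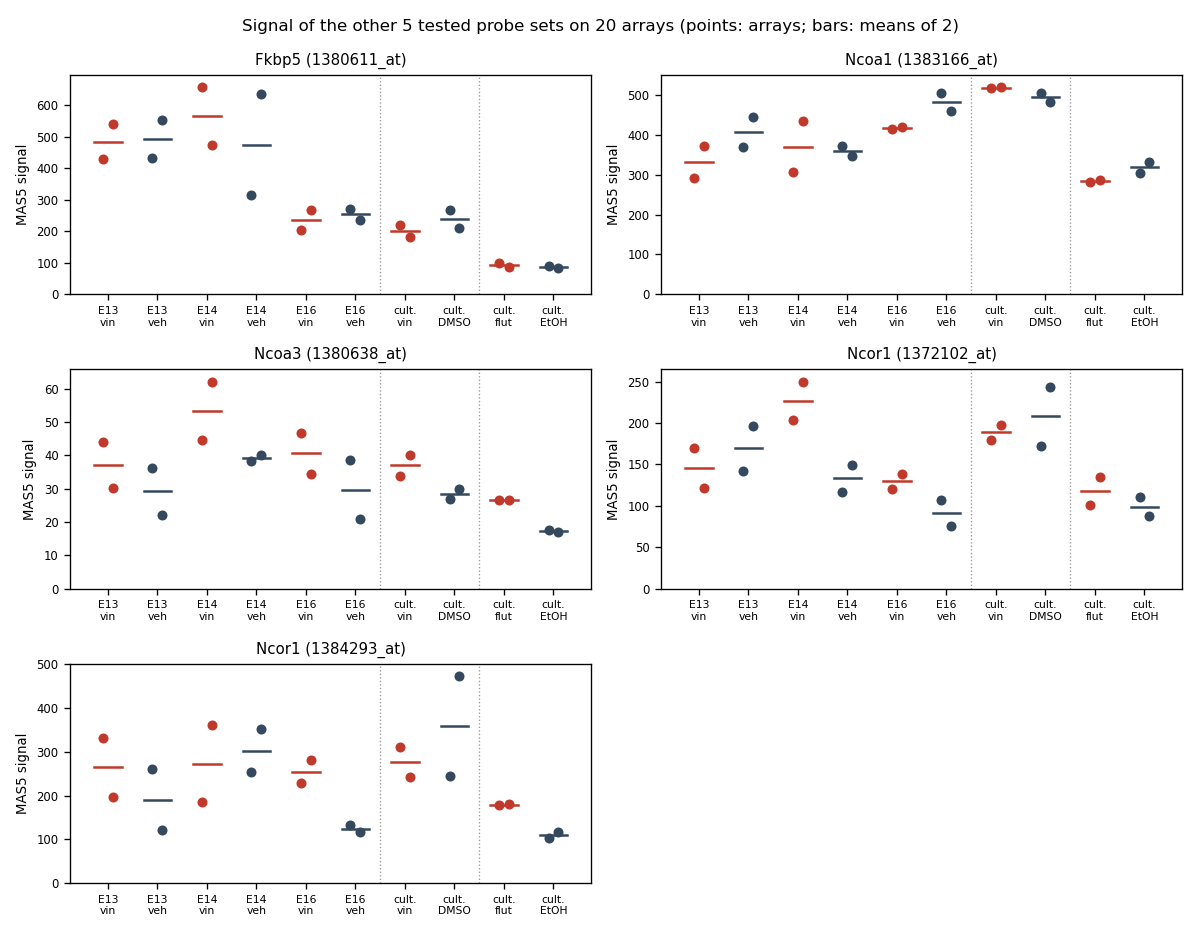
MAS5 signal (y axis, linear, from 0) of the other 5 tested probe sets on all 20 arrays, with points, bars, colours and dotted lines as in the plot of the 6 genes. The second Fkbp5 probe set is below 300 on every E16 array, and the 2 dimmer Ncor1 probe sets both set vinclozolin above vehicle at E16 and differ from each other at E14.

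The first comparison asked whether the machinery responded to an antiandrogen. No probe set of these genes passed the test with either compound, in utero or in culture. Probe sets were tested with limma on log2 of signal plus 16, with p-values adjusted by the Benjamini-Hochberg method over all 22526 tested probe sets and a threshold of 0.05, and 11 probe sets of 6 genes entered the test. With vinclozolin minus vehicle, 0 of 11 passed at E13, where 0% of all probe sets did, 0 of 11 at E14, where 0.00444% did, and 0 of 11 at E16, where 0% did. For the mean of the 3 stages 0 of 11 passed, against 0% of all. In culture 0 of 11 passed for vinclozolin minus DMSO and 0 of 11 for flutamide minus ethanol, against 0% of all in each. Over the whole array these 6 comparisons gave 1 call, at E14.

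At an unadjusted p under 0.05, limma gave 0 of the 11 probe sets at E13 (1.78% of all probe sets), 2 at E14 (5.5%), 1 at E16 (6.69%), 1 for the mean of the stages (4.1%), 0 for vinclozolin in culture (2.71%) and 1 for flutamide in culture (2.19%). At E14 these were Fkbp5 (1388901_at, log2 difference 0.56, SE 0.23, adjusted p = 0.888) and Ncor1 (1372102_at, 0.70, SE 0.24, adjusted p = 0.888). At E16 it was Ncor1 with its other dim probe set (1384293_at, 0.94, SE 0.35, adjusted p = 0.621). The mean over stages picked Ncor1 1372102_at (0.32, SE 0.14, adjusted p = 0.998). The brightest Ncor1 probe set differed by -0.06 at E14 and -0.02 at E16. The Fkbp5 value at E14 rested on the vehicle arrays. Without vehicle replicate 2 it was 0.97 (adjusted p = 0.0434), and without vehicle replicate 1 it was 0.14 (adjusted p = 1). Vehicle replicate 1 also stood apart from the other E14 arrays in summed marker signal, with a Sertoli sum of 5538.9 against 10663.2 to 12991.2, a red cell sum of 12150.6 against 3247.4 to 4739.7 and a Leydig sum of 690.2 against 324.9 to 457, and the part of these in the Fkbp5 value was not tested.

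In the flutamide culture the member was Ncoa3 (1388178_at), with a log2 difference of 1.08 (SE 0.29, unadjusted p = 0.00183, adjusted p = 1). On these arrays the actin 3' to 5' value was 9.08 and 9.75 with flutamide against 11.06 and 11.02 with ethanol, and the 40th percentile was 30.7 and 29 against 26.6 and 26.5, without overlap, and their part in the difference was not tested. Since both ethanol arrays were under the 40th percentile, the size of the difference is not known. With ethanol set at that percentile, the mean with flutamide was 1.32-fold higher, a value without a measure of its error. The other Ncoa3 probe set, 1380638_at, was not detected on any array of the flutamide culture. With flutamide minus ethanol it gave 0.35 (SE 0.26) and did not pass. Neither Ncoa3 probe set passed the adjusted test with vinclozolin in culture (0.05, SE 0.29, and 0.25, SE 0.26). The culture doses differed, 50 µM vinclozolin and 0.5 µM flutamide, so the compounds were not compared.

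A p that misses the threshold does not show that the levels were alike, so the intervals are given. For the mean effect of vinclozolin in utero, the 95% intervals of all 11 probe sets lay inside a 2-fold change in either direction, with bounds between -0.40 and 0.84 on the log2 scale. Ncoa4 was at -0.17 (-0.40 to 0.06), Fkbp4 at 0.04 (-0.21 to 0.28), Fkbp5 at 0.10 (-0.17 to 0.38), Ncoa1 at -0.07 (-0.32 to 0.18), Ncoa3 at 0.01 (-0.35 to 0.36) and Ncor1 at -0.03 (-0.22 to 0.17), each with the probe set that stands for its gene. At single stages and in culture 9 or 10 of 11 intervals lay inside 2-fold, and those that did not belonged to Ncor1, Ncoa3 and Fkbp5. A moderated F test for an effect of vinclozolin that differs between E13, E14 and E16 called 0 of 11 probe sets (0% of all probe sets), and 1 at an unadjusted p under 0.05 (4.46% of all), Ncor1 1372102_at (adjusted p = 0.983).

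**Figure D4:**
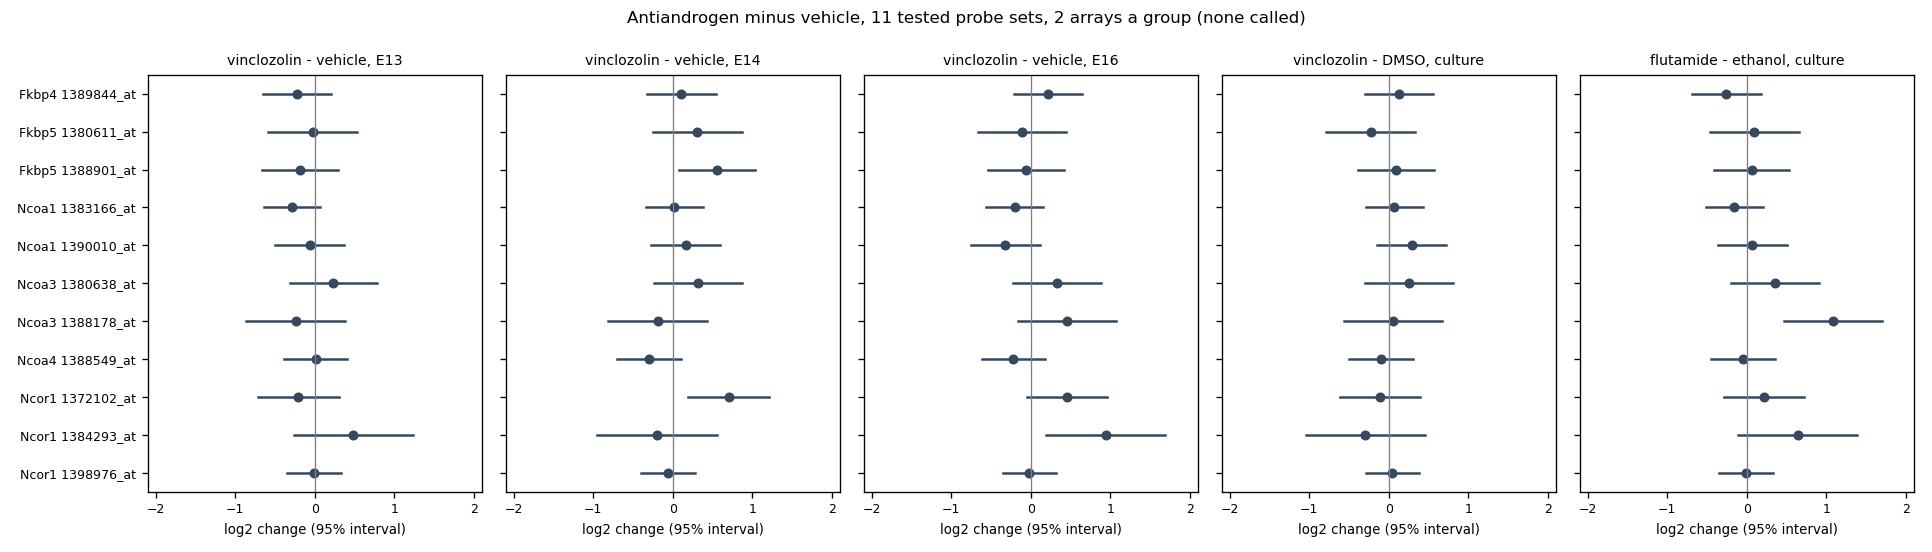
Log2 difference (x axis, on log2 of signal plus 16) of compound minus vehicle for the 11 tested probe sets (rows) at E13, E14 and E16 and in both cultures, with 95% intervals from limma and 2 arrays a group. No probe set is past the adjusted threshold. Ncor1 1384293_at at E16 is at 0.94, and Ncoa3 with flutamide is drawn at 1.08, against ethanol arrays under the 40th percentile.

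The second comparison followed the machinery over the stages, with vinclozolin and vehicle arrays weighted equally (4 arrays a stage). Fkbp5 and Fkbp4 were lower and Ncoa4 was higher at E16 than at E14, and Ncoa1 and Ncoa3 passed no test in this fit. Ncoa1 1383166_at came near the threshold at E16 against E14 (limma, log2 0.30, SE 0.12, adjusted p = 0.0544). It passed in some alternatives, among them quantile normalization and the filter at the median. The brightest Ncoa1 probe set, 1390010_at, gave 0.11 (adjusted p = 0.567). From E14 to E16 limma called 1 of 11 probe sets higher, against 18.3% of all probe sets, and 4 of 11 lower, against 23.2% of all. These shares are close to the background, so they describe single genes and not the group. The 4 lower were both probe sets of Fkbp5, that of Fkbp4 and 1 of Ncor1, so they are not 4 separate genes. The median log2 change of the 11 probe sets was -0.38, and that of all tested probe sets was -0.06.

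Ncoa4 averaged 3647.8 ± 689.9 at E16 and 1786.2 ± 447.7 at E14 (SD, n = 4 each), a log2 change of 1.04 (SE 0.13, adjusted p = 2.28e-05). The change was 1.08 within the vinclozolin arrays and 1.00 within the vehicle arrays. Both Fkbp5 probe sets fell, 1380611_at to 244.9 ± 31.5 at E16 against 520.2 ± 159.9 at E14 (log2 -0.99, SE 0.19, adjusted p = 0.000545) and 1388901_at to 410.6 ± 31.9 against 698.2 ± 199.7 (log2 -0.69, SE 0.16, adjusted p = 0.00244). The size for 1388901_at was -1.0 within vinclozolin arrays and -0.39 within vehicle arrays, and with vehicle arrays alone it did not pass (adjusted p = 0.232). Fkbp4 fell to 866.4 ± 92.8 at E16, against 1230.1 ± 248.8 at E14 (log2 -0.48, SE 0.14, adjusted p = 0.0131). That call was lost without any 1 of E14 vinclozolin replicate 1 (adjusted p = 0.0735), E14 vehicle replicate 2 (0.0607) or E16 vinclozolin replicate 1 (0.0543). Of the Ncor1 probe sets, 1372102_at fell (log2 -0.61, SE 0.17, adjusted p = 0.00847), 1384293_at gave -0.60 (adjusted p = 0.0643) and the brightest, 1398976_at, gave -0.08 (SE 0.11). For 1384293_at that mean joined unlike values, -1.17 within vehicle arrays (adjusted p = 0.0269) and -0.03 within vinclozolin arrays (adjusted p = 0.96).

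Set against E13, the E16 arrays gave 1 of 11 probe sets higher (9.45% of all probe sets) and 2 of 11 lower (9.3% of all). Ncoa4 was again the member that rose, with 3647.8 ± 689.9 at E16 and 1858.8 ± 25.8 at E13 (log2 0.95, SE 0.13, adjusted p = 9.74e-05). The 2 that fell were the probe sets of 1 gene, Fkbp5. For 1380611_at the mean was 244.9 ± 31.5 at E16 and 488.6 ± 68.1 at E13 (log2 -0.95, SE 0.19, adjusted p = 0.00186). For 1388901_at it was 410.6 ± 31.9 at E16 and 587 ± 105.6 at E13 (log2 -0.49, SE 0.16, adjusted p = 0.042), a call that held in 15 of 34 alternatives. Without both E13 arrays numbered 1 the changes were 0.96 for Ncoa4, -1.12 and -0.66 for Fkbp5, and all 3 still passed. Ncor1 1398976_at gave -0.33 (SE 0.11, adjusted p = 0.0527), with all 4 arrays at E16 below those at E13, and Fkbp4 gave -0.20 (SE 0.14).

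Between E14 and E13 limma called 0 of 11 probe sets, whereas 13.1% of all probe sets were higher and 12% lower at E14. At an unadjusted p under 0.05 there was 1 of the 11 (37.8% of all probe sets), Ncor1 1398976_at with -0.25 (SE 0.11, adjusted p = 0.112). The intervals of all 11 probe sets lay inside a 2-fold change. Without both E13 arrays numbered 1, Ncor1 1384293_at passed the test. Without E14 vinclozolin replicate 2, Fkbp4 and Ncor1 1398976_at did, and without E14 vehicle replicate 1, Fkbp5 1388901_at did. The comparisons share the arrays of a stage, so a shift of the E14 arrays would enter both comparisons with E14.

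**Figure D5:**
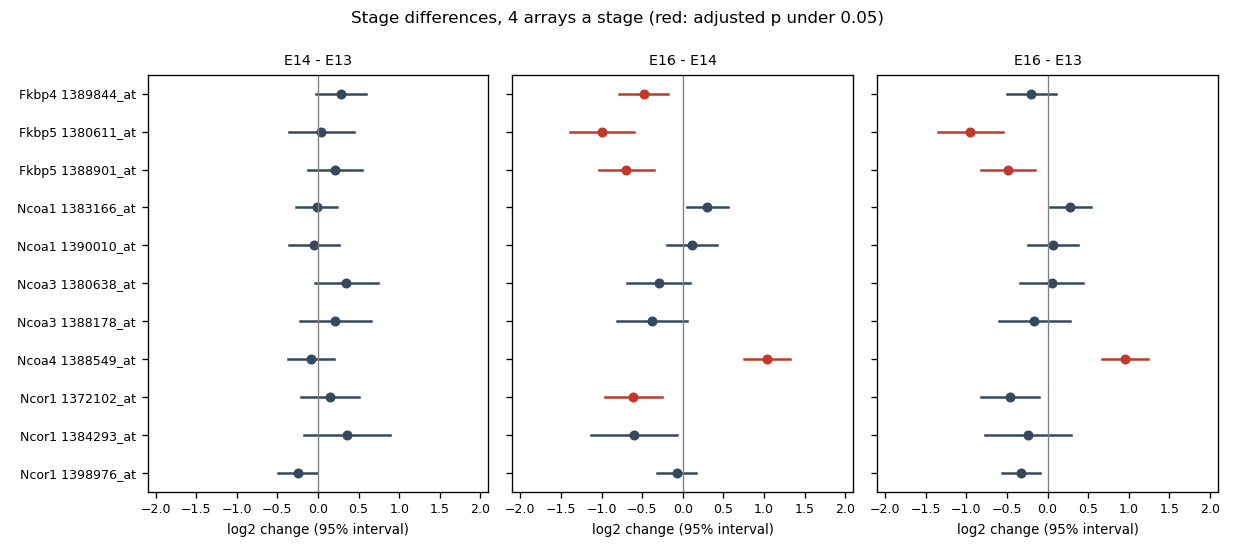
Log2 change (x axis, on log2 of signal plus 16) between stages for the 11 tested probe sets (rows), later minus earlier, 4 arrays a stage, with 95% intervals and called probe sets in red. Ncoa4 is red and to the right in both panels with E16 on top (1.04 and 0.95), both Fkbp5 probe sets are red and to the left there, and no probe set is red for E14 minus E13.

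Cell type markers differed between the stages as well. Over all probe sets, 18.3% rose and 23.2% fell at E16 against E14. Some markers were detected on few arrays, for example Cyp17a1 and Insl3 on 12 of 20 and Cnn1 and Epb42 on 5 of 20. Such markers entered the test through the groups where they are high, so their calls below are no tests of their own. The 5 Leydig markers measured all rose at E16 against E14, and their summed signal was 184.3 to 348.6 at E13, 324.9 to 690.2 at E14 and 10320.2 to 20109.6 at E16. The 4 peritubular and smooth muscle markers all rose as well, with sums of 491.6 to 804.3, 600.7 to 771.7 and 2306.3 to 3409.6. So did the 4 red cell markers, with sums of 773.3 to 5554.4, 3247.4 to 12150.6 and 15410.4 to 26564.2. The array with the highest Ncoa4 signal at E16, vehicle replicate 1, also had the highest red cell sum (26564.2), and the same held at E14 (12150.6). At E13 the array with the highest Ncoa4 signal, vehicle replicate 1, had the lowest red cell sum (773.3). In the cultures the red cell sum was 301.1 to 450.8 and 923.7 to 1516.4, while Ncoa4 stood at percentiles 96.46 to 96.95 with vinclozolin or DMSO and 95.17 to 95.73 with flutamide or ethanol. The 5 mesonephros and tubule markers all fell at E16 against E14, with sums of 1058.1 to 1738.3, 834.5 to 1571.3 and 494.4 to 707.4. Of the 5 Sertoli markers 1 rose and 3 fell, with sums of 4951.8 to 6642.5, 5538.9 to 12991.2 and 4836.7 to 6067.8. Of the other lists, 2 of 3 endothelial, 1 of 2 germ cell and 2 of 3 ovary-type supporting cell markers fell and 2 of 5 macrophage markers rose. The part of these cell types in the changes of Ncoa4, Fkbp5, Fkbp4 and Ncor1 was not tested. In RNA of whole testes, fewer cells of a type and less RNA per cell cannot be told apart.

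Genes around the members were taken from 5 lists, each gene with its brightest tested probe set. Of 16 chaperones and cochaperones tested, which hold the receptor in its ligand-ready form, 3 rose and 4 fell at E16 against E14 and 9 did not pass. These shares are near those over all probe sets (18.3% and 23.2%), and the median log2 change was -0.11, against -0.06 over all. Dnaja1, an HSP40 cochaperone, rose by 0.68 (adjusted p = 4.44e-05) and Ppid, the immunophilin cyclophilin 40, by 0.70 (adjusted p = 0.000173). Sgta, a small glutamine-rich cochaperone that binds the androgen receptor in human cells, fell by 0.84 (adjusted p = 3.14e-05), and Cdc37, an HSP90 cochaperone for kinases, fell by 0.44 (adjusted p = 0.00543). Against E13, 0 rose and 3 fell (9.45% and 9.3% over all, median -0.11, against -0.02), namely Hsph1 (-0.54), St13 (-0.37) and Sgta (-0.36). At E14 against E13, 3 rose and 4 fell, where 13.1% of all probe sets rose and 12% fell. Dnaja1 (-0.53) and Ppid (-0.60) were among those that fell and Sgta (0.49) among those that rose, in comparisons that share the E14 arrays.

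Of 35 further coregulators tested, 8 rose and 12 fell at E16 against E14, where 18.3% of all probe sets rose and 23.2% fell (median -0.11). Against E13, 3 rose and 11 fell, where 9.45% of all rose and 9.3% fell (median -0.25, against -0.02 over all). Fhl2, a LIM protein known as an androgen receptor coactivator, rose by 0.81 against E14 (adjusted p = 0.000104) and by 1.40 against E13 (adjusted p = 8.5e-07). Tgfb1i1, also called ARA55 and abundant in smooth muscle, rose by 0.87 against E13 (adjusted p = 6.59e-05). Arid1a, a subunit of the SWI/SNF chromatin remodelling complex, fell by 0.93 against E14 (adjusted p = 2.54e-06) and by 0.66 against E13 (adjusted p = 8.74e-05). Its catalytic partner Smarca4 fell by 0.89 against E13 (adjusted p = 0.000107). Pnrc2 rose by 0.63 and Ncoa5 fell by 0.75 against E14. At E14 against E13, 5 coregulators rose and 4 fell, close to the shares over all probe sets (13.1% and 12%).

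Of 12 tested genes of androgen and steroid metabolism, some of them also Leydig cell markers, 6 rose and 1 fell at E16, both against E14 and against E13, where the shares over all probe sets were 18.3% and 23.2%, and 9.45% and 9.3%. Cyp17a1, which makes the androgen precursors, was detected on none of the 4 arrays at E14 and none of the 4 at E13 and entered the test through the groups where it is high. With those arrays set at their 40th percentile it was at least 99.4-fold higher at E16 than at E14. It is counted among the 6 that rose, but its call is no test of its own, and no p-value is given for the bound. Hsd3b1, detected at all stages, rose by 4.34 on the log2 scale against E14 (adjusted p = 9.5e-09). Hsd17b3, which completes testosterone synthesis, rose by 1.31 against E14 (adjusted p = 0.00346) and by 3.24 against E13 (adjusted p = 2.3e-06), where it was detected on 2 of 4 arrays. Hsd11b2, which inactivates glucocorticoid, fell by 0.78 against E14 (adjusted p = 0.000981). At E14 against E13, 5 rose and 1 fell, where 13.1% of all probe sets rose and 12% fell. Fkbp4, Fkbp5, Ncoa1, Ncoa4 and Ncor1 were detected on all arrays at E13 and E14, the stages at which the summed Leydig signal was at or below 690.2.

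In the list of steroid receptors 1 gene, the glucocorticoid receptor gene Nr3c1, was tested, and 4 others with a probe set did not reach the filter on signal. It rose by 1.03 on the log2 scale at E16 against E14 (adjusted p = 9.25e-05) and by 1.02 against E13 (adjusted p = 0.000231). Of 16 genes known to respond to androgen or glucocorticoid in other tissues, 3 rose and 3 fell at E16 against E14, and 3 rose and 2 fell against E13. The shares over all probe sets were 18.3% and 23.2% against E14 and 9.45% and 9.3% against E13. Errfi1, an inhibitor of the EGF receptor, fell by 1.13 against E14 (adjusted p = 2.16e-05) and by 1.78 against E13 (adjusted p = 3.08e-07). Sgk1, a kinase induced by glucocorticoid, rose by 0.43 against E14 (adjusted p = 0.012) and by 0.62 against E13 (adjusted p = 0.00233). The clock gene Per1 fell by 0.73 against E14 (adjusted p = 0.0135), and Rhox5, an androgen-responsive homeobox gene of the mouse testis, rose by 0.96 against E13 (adjusted p = 0.0182). At E14 against E13, 2 rose and 1 fell, where 13.1% of all probe sets rose and 12% fell.

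With vinclozolin or flutamide none of the 5 lists had a gene past the adjusted test in any of the 6 comparisons. At an unadjusted p under 0.05 limma gave between 0 and 4 genes per list and comparison, the 4 being coregulators at E14. The smallest unadjusted p among the responsive genes belonged to Tmprss2 with flutamide (log2 difference 1.29, SE 0.40, adjusted p = 1). In utero its probe set was near the detection limit, reached on 2 of 4 arrays at E13, 1 of 4 at E14 and 2 of 4 at E16. Its detection on the culture arrays, from which the difference comes, is not given here, so the size of the difference is uncertain. Sgk1 at E14 was at 0.48 (SE 0.18, adjusted p = 0.888) and Nr3c1 at -0.31 (SE 0.22, adjusted p = 0.893).

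Genes whose signal ran most like that of a member over the 12 in utero arrays were found for the 4 genes with a stage call, by Pearson's r between log2 values of the probe sets that stand for the genes. The arrays share stages and scaling, so these values describe these arrays only. For Ncoa4 they were Sytl2 (0.971), Slc8a1 (0.967) and Lox (0.966), and for Fkbp5 Tgif2 (0.968), Smoc1 (0.966) and Rbm19 (0.959). For Fkbp4 they were Xrcc3 (0.976), Csnk2b (0.953) and Xab2 (0.944), and for Ncor1 Fndc3c1 (0.961), Eya1 (0.96) and Mllt3 (0.958). The Ncor1 values are for 1398976_at, which had no stage call, and not for 1372102_at, which had.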

How the data were processed

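RNA of 20 embryonic rat testis samples was measured on Affymetrix arrays. The authors deposited linear signal intensity per probe set, computed by MAS5 in GCOS, per the submitters' processing notes; their versions were not given in those notes. Of 31099 probe sets, 57 controls were left out, and of the other 31042, 20826 had 1 gene symbol in the platform annotation, 436 several and 9780 none. Locations and promoters came from RefSeq (GRCr8), with a promoter for 6 of the 8 listed genes.

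Signals were taken to log2 after adding 16. Testing required a signal at or above the array's 40th percentile on 2 or more arrays, met by 22526 probe sets. The model, in limma 3.58.1 (R 4.3.3), gave each group a mean, held all 20 arrays and moderated variances with a trend (residual degrees of freedom 10, prior 6.76). The p-values are two-sided with Benjamini-Hochberg adjustment. The fit was tested on simulated data. The number of arrays limits the precision.

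All probe sets of the members are named, from each list up to 4 genes of smallest p past the threshold or the 1 of smallest p, and for each called member the 3 genes most like it. Members, gene lists and tests were chosen with earlier results of these data known. Alternatives were quantile normalization, rescaling to 1 trimmed mean, a filter at the median or none, pseudocounts of 1 and 64, fewer arrays in the fit, a replicate block, no trend, and leaving out arrays.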

Additional observations from a re-analysis of the deposited data

How the results depend on the processing

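With vinclozolin or flutamide, 0 of 11 probe sets passed in every alternative run except at E14, where leaving out 1 array in turn gave 0 to 1 (Fkbp5 1388901_at, without E14 vehicle replicate 2, where 272 probe sets of the whole array passed against 1). For E14 minus E13 the count was 0, against 0 to 2 when 1 array was left out (2 without E14 vinclozolin replicate 2) and 1 without both E13 arrays numbered 1; the cause was not tested. For E16 minus E14 the count of 5 became 3 with vehicle arrays only, which has fewer samples, and 4 to 6 when 1 array was left out. For E16 minus E13 the count of 3 became 2 to 4 when 1 array was left out. Ncoa4 and Fkbp5 1380611_at passed in all 34 alternatives of both comparisons, with changes of 0.84 to 1.19 and -1.24 to -0.75 for E16 minus E14 and of 0.82 to 1.08 and -1.12 to -0.84 for E16 minus E13. Fkbp4 passed in 29 of 34, and Fkbp5 1388901_at and Ncor1 1372102_at in 33 of 34 for E16 minus E14. The 3 that passed there with vehicle arrays only were Ncoa4, Fkbp5 1380611_at and Ncor1 1384293_at, and the last was not among the 5. Fkbp4, Fkbp5 1388901_at and Ncor1 1372102_at did not pass with vehicle arrays only (limma, adjusted p = 0.068, 0.232 and 0.155). Same-numbered arrays deviated together at E13 (correlation of deviations 0.602) but at -0.055 at E14, -0.112 at E16, 0.115 with vinclozolin in culture and 0 with flutamide, and the labels do not tie the numbers to litters or gonad pairs, so they were not used as pairs. With the replicate block 6 probe sets passed for E16 minus E14 and 3 for E16 minus E13, and none for the treatments or for E14 minus E13. The E16 numbers crossed, a pairing chosen after seeing the data, gave 7 and 4. Over the whole array, E14 minus E13 gave 5643 calls, and 659 with vehicle arrays only. The number of arrays limits what can be detected, with an SE of 0.35 for a treatment difference of Ncor1 1384293_at and 0.29 for Ncoa3 1388178_at.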
